A study of Sus scrofa with 12 samples.

Results

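Peroxiredoxins are enzymes that remove hydrogen peroxide and organic peroxides with a reactive cysteine. Thioredoxin reductase passes electrons from NADPH to thioredoxin, thioredoxin in turn reduces the oxidized peroxiredoxins and many other proteins, and sulfiredoxin repairs peroxiredoxins whose cysteine has been oxidized too far. In the lining of the intestine this system works beside glutathione in cells that meet oxidants from food, microbes and their own mitochondria. The genes described here were chosen by name: PRDX1, PRDX2, PRDX3, PRDX4, PRDX5, PRDX6, TXN, TXN2, TXNRD1 and SRXN1. Of these 10 genes, 9 had at least 1 probe set under their symbol in the platform annotation, 15 probe sets in all among the 47845 of the array, which cover 13664 genes by symbol. PRDX5, which encodes a peroxiredoxin found in mitochondria, peroxisomes and the cytosol, had no probe set under its symbol and was not analysed here.

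The series held 12 arrays of jejunal mucosa, the inner lining of the gut segment between duodenum and ileum, with 1 array per pig. The pigs had high feed efficiency (6 pigs) or low feed efficiency (6 pigs), the gain an animal makes on its feed. Males and females were balanced, 3 and 3 in each group, and all were 140 days old. No breed, diet, treatment, batch or measure of feed efficiency is given in the sources used here. Pigs are named below by group, sex and a replicate number that follows the order of deposit: in each group replicates 1 to 3 were males and 4 to 6 were females, and equal numbers do not pair pigs.

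Each value is the deposited signal of a probe set, read as log2 from its range. The short probes of a set are read together as 1 value, and a step of 1 on this scale doubles the signal. Where a gene had several probe sets, the one of the highest mean over the 12 arrays is called its main probe set. Levels are compared between pigs and not between genes, since probes differ in how brightly they bind. Array medians ran from 4.02 to 4.16. The SD of all probe sets within an array, called array spread here, averaged 2.20 ± 0.0469 over the 6 high pigs and 2.25 ± 0.0196 over the 6 low pigs (SD). Enterocyte markers, genes of the absorptive cells, were bright on all 12 arrays: the mean of the 11 measured genes of a list of 12 ran from 8.55 to 10.79 in the high group and from 9.84 to 11.14 in the low group. Male replicate 1 of the high group had the lowest enterocyte mean and the lowest array weight, 0.402, in limma's weighting of arrays by their fit.

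The first comparison asked which of these genes differed between the mucosa of pigs with high and low feed efficiency. None of the 12 probe sets of the 9 genes bright enough to be tested passed the adjusted threshold of 0.05 in limma's fit with sex as a term, and the background was likewise 0% of 35791 probe sets. At an unadjusted p under 0.05, 2 of the 12 passed, those of PRDX1 and TXN. Both were lower in the high group. Both calls lay near the threshold, and with 1 pig left out PRDX1 no longer passed in 7 of 12 fits and TXN in 9 of 12. The background at that threshold was 7.79% in either direction and 3.98% on the lower side. The main probe sets of 7 of the 9 genes had a lower mean in the high group (77.8%), with a median difference of -0.29. PRDX2 and SRXN1 are among the 7, and their main probe sets were dim. Their means were 2.38 and 2.97, where probe sets above 2.29 were tested. Over all 12579 genes tested 57.2% were lower in the high group, with a median of -0.033. In no member probe set were the 6 high and the 6 low pigs without overlap, which was the case for 0.282% of the probe sets tested. Several cell type marker lists were lower in the high group as well, and others were not. Enterocyte markers were lower for 10 of 11 genes, with a median difference of -0.32. By the mean of these markers, however, only 2 of 6 high pigs lay under the low group's median of 10.59. The high group's own median was 10.63. Its male replicate 1 stood apart at 8.55, against 10.32 to 10.79 for the other high pigs. T cell markers were lower for 7 of 7 tested genes of 8 listed (median -0.14), with a marker mean of 7.43 to 8.38 in the high group and 7.92 to 8.30 in the low group. Plasma cell markers were lower for 5 of 5 tested genes of 7 listed (median -0.075), and macrophage and dendritic cell markers for 3 of 4 tested genes of 7 listed (median -0.27). Fibroblast markers were instead higher in the high group for 6 of 7 genes (median 0.18), and enteroendocrine markers for 4 of 7 (median 0.10). Smooth muscle and endothelial markers were each split, with 3 genes lower and 3 higher. The part of these cell types in the differences was not tested. In bulk tissue, fewer cells of a type and less RNA per cell cannot be told apart.

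**Figure D1:**
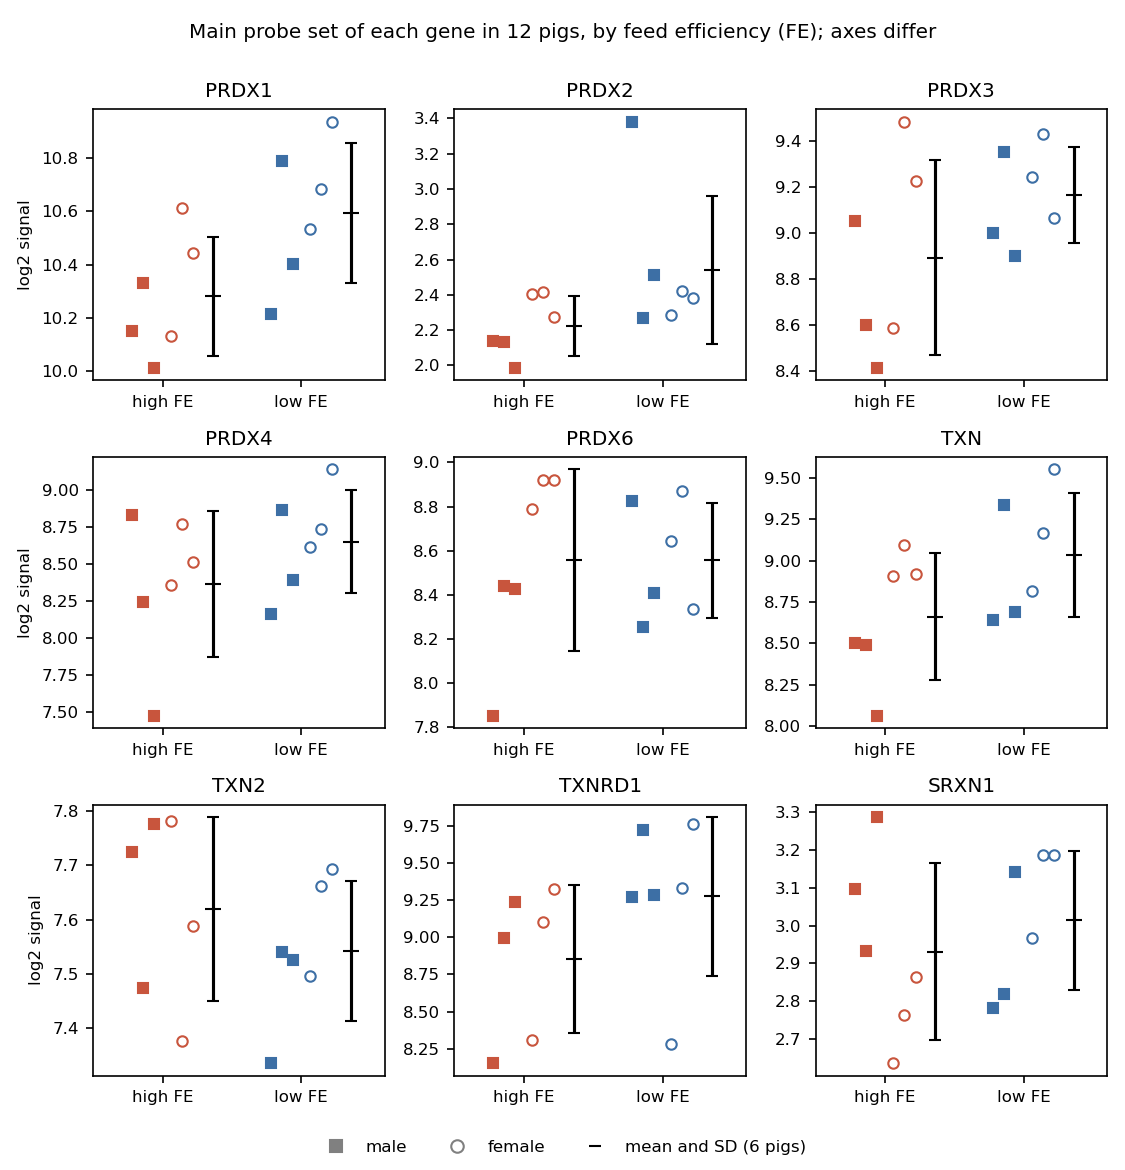
Log2 signal of the main probe set of 9 genes in each of 12 pigs, high feed efficiency on the left (red) and low on the right (blue) of each panel. Filled squares are males, open circles females, and black bars the mean and SD of 6 pigs. The vertical axes differ between panels. The groups overlap for all 9 genes, and the single low male at 3.38 for PRDX2 and the single low female at 8.28 for TXNRD1 stand apart from their groups.

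Thioredoxin and its reductase are given first, as the electron source of the system. TXN, the thioredoxin of cytosol and nucleus, had a lowest, median and highest level of 8.06, 8.70 and 9.10 in the high group, against 8.64, 8.99 and 9.55 in the low group. The 3 high males were the 3 lowest of all 12 pigs, and the other pigs of both groups overlapped. The means were 8.66 ± 0.382 (SD, n = 6) in the high group and 9.03 ± 0.373 (SD, n = 6) in the low group. The difference was -0.37 (SE 0.169, 95% interval -0.74 to -0.0027), a level 1.29-fold lower in the high group, with an unadjusted p of 0.0486 and an adjusted p of 0.639 in limma. In the high group 5 of 6 pigs were under the median of the low group. Relabelling pigs within sex gave an exact two-sided permutation p of 0.05, where the smallest that 400 relabellings allow is 0.005. A second, dim TXN probe set with a mean of 1.43 was too low to be tested and was higher in the high group by 0.23, so that the mean of both probe sets differed by -0.068.

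TXNRD1 encodes the cytosolic thioredoxin reductase, a selenoprotein that draws on NADPH. Its main probe set had a lowest, median and highest level of 8.15, 9.05 and 9.33 in the high group, against 8.28, 9.31 and 9.76 in the low group. Replicates 1 and 4 of the high group and replicate 4 of the low group had the lowest levels, and the other 9 pigs lay close together. The difference was -0.42 (SE 0.281, 95% interval -1.03 to 0.19) with an adjusted p of 0.728 in limma. It was the largest in size of the 9 genes and also the least precise. A second probe set gave -0.38 (adjusted p 0.703), with 6 of 6 high pigs below the low group's median. The value depended on single pigs: without low replicate 4 the main probe set differed by -0.63 (unadjusted p 0.0217 in limma), and without high replicate 1 by -0.25.

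The 2 TXNRD1 probe sets followed each other across the 12 pigs, with a Pearson r of 0.962 and a Spearman rho of 0.811 (adjusted permutation p 0.0007 and 0.0234). The 3 dimmest pigs ran from 8.15 to 8.31 in the main probe set and from 7.88 to 8.25 in the second. The other 9 pigs ran from 9.00 to 9.76 and from 8.80 to 9.40, and among those 9 the r was 0.806. This split at a level of 8.5 was made after the values were seen. Both probe sets were thus dim in the same 3 pigs, a male and a female of the high group and a female of the low group.

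TXN2 encodes the thioredoxin of mitochondria. Its lowest, median and highest levels were 7.38, 7.66 and 7.78 in the high group, against 7.34, 7.53 and 7.69 in the low group. It varied less than any other of the 9 genes, with an SD of 0.149 over the 12 pigs, and its groups overlapped over nearly their whole range. The difference was 0.078 (SE 0.113, 95% interval -0.17 to 0.32, adjusted p 0.887 in limma).

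The cytosolic peroxiredoxins follow. PRDX1, which encodes an abundant peroxiredoxin of cytosol and nucleus, had a lowest, median and highest level of 10.01, 10.24 and 10.61 in the high group, against 10.22, 10.61 and 10.94 in the low group. The 3 lowest pigs were high and the 3 highest were low, with the others mixed between. The means were 10.28 ± 0.224 (SD, n = 6) in the high group and 10.59 ± 0.263 (SD, n = 6) in the low group. The difference was -0.31 (SE 0.135, 95% interval -0.61 to -0.018), a level 1.24-fold lower in the high group, with an unadjusted p of 0.0393 and an adjusted p of 0.638 in limma. The exact permutation p was 0.04, and 5 of 6 high pigs lay below the low group's median. PRDX1 had a single probe set.

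PRDX2 encodes a cytosolic peroxiredoxin that is abundant in red blood cells. Its main probe set was dim, with levels of 1.98, 2.21 and 2.42 (lowest, median, highest) in the high group, against 2.27, 2.40 and 3.38 in the low group. The 3.38 came from the low male replicate 1, and every other pig was at 2.51 or below. The difference of -0.32 (SE 0.186, adjusted p 0.697 in limma) was -0.13 without that pig. The second PRDX2 probe set, too dim to be tested, was higher in the high group by 0.20, and the mean of both differed by -0.056. The low female replicate 4 had the highest red blood cell marker mean, 5.72 over 4 of 7 listed genes, against 4.45 to 4.78 in the other low pigs and 4.48 to 4.86 in the high group. The main PRDX2 level of that pig was 2.29.

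PRDX6 encodes a peroxiredoxin that is reduced mainly through glutathione and also acts as a phospholipase. Its main probe set had levels of 7.85, 8.61 and 8.92 in the high group, against 8.25, 8.52 and 8.87 in the low group (lowest, median, highest). The high group was split by sex: its 3 males were at 7.85 to 8.44 and its 3 females at 8.79 to 8.92. The difference between the groups was 0.0021 (SE 0.165, 95% interval -0.36 to 0.36, adjusted p 0.999 in limma), so differences of up to 0.36 in either direction lie within the interval. A dim second probe set, with a mean of 2.44, gave 0.090 (adjusted p 0.926).

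The peroxiredoxins of organelles were next. PRDX3, which encodes the peroxiredoxin of the mitochondrial matrix, had levels of 8.41, 8.82 and 9.48 in the high group, against 8.90, 9.15 and 9.43 in the low group (lowest, median, highest). High replicates 2, 3 and 4 lay at 8.60, 8.41 and 8.59, below every low pig, while the other 3 high pigs were at 9.05, 9.48 and 9.22. The difference was -0.27 (SE 0.174, 95% interval -0.65 to 0.11, adjusted p 0.719 in limma).

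PRDX4 encodes the secreted peroxiredoxin of the endoplasmic reticulum, where it takes part in oxidative folding. Its levels were 7.47, 8.43 and 8.83 in the high group, against 8.16, 8.68 and 9.14 in the low group (lowest, median, highest). The high male replicate 3 was lowest of all, and the remaining high pigs lay within the range of the low group. The difference was -0.29 (SE 0.213, 95% interval -0.75 to 0.18, adjusted p 0.750 in limma). The probe sets of PRDX3 and PRDX4 carry the array's mark for probes that may match more than 1 transcript.

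SRXN1 encodes sulfiredoxin, the repair enzyme. Its 3 probe sets were dim, with means of 2.97, 2.93 and 2.17, and the first 2 were tested. The main one had levels of 2.63, 2.90 and 3.29 in the high group, against 2.78, 3.05 and 3.19 in the low group (lowest, median, highest). The groups overlapped fully. The difference was -0.083 (SE 0.136, 95% interval -0.38 to 0.21, adjusted p 0.899 in limma), with -0.19 (adjusted p 0.721) in the second probe set and 0.19 in the third. The 69 background probe sets of the array, sorted by the number of G and C bases in their probes, had means from 1.21 to 7.70 with a median of 2.53, and the 30 with 12 or fewer G and C had means from 1.21 to 1.68. The base content of the members' probes is not given in the sources used here, so which of these backgrounds applies to them is not known. PRDX2, SRXN1 and the second probe set of PRDX6 lie above the range of the 30 but within the full range, as does TXN2 with its mean of 7.58, and the second probe set of TXN lies within both.

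**Figure D2:**
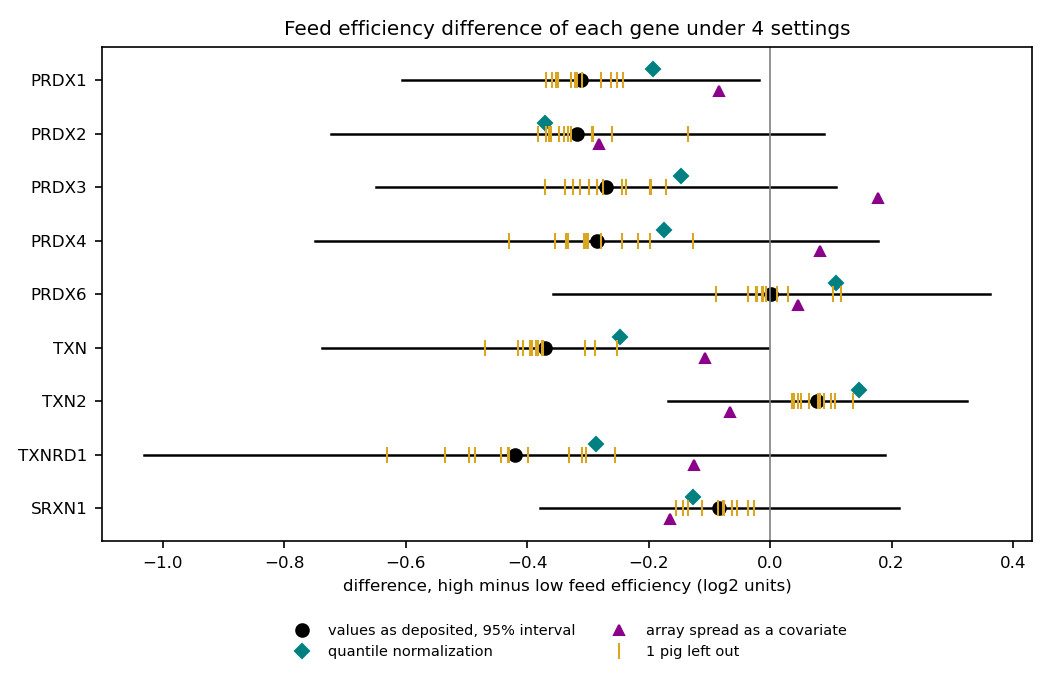
Difference between high and low feed efficiency in log2 units for the main probe set of 9 genes, high minus low. Black points are the values as deposited with their 95% interval, diamonds the values after quantile normalization, triangles the values with array spread as a covariate, and ticks the values with 1 pig left out. PRDX1, PRDX2, TXN, TXNRD1 and SRXN1 keep a negative value in every setting drawn, with PRDX1, TXN and TXNRD1 at -0.084, -0.11 and -0.13 under the covariate. PRDX3 and PRDX4 turn positive and TXN2 negative under it.

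Of the 7 negative differences, all but that of SRXN1 were smaller or turned positive once array spread, which was lower in the high group, was allowed for. With spread as a covariate the difference of PRDX1 was -0.084 and that of TXN was -0.11. That of TXNRD1 was -0.13, while PRDX3 came to 0.18 and PRDX4 to 0.082. Quantile normalization, which gives every array the same distribution, left -0.19 for PRDX1, -0.25 for TXN and -0.29 for TXNRD1, and no member passed an unadjusted p of 0.05 under it. Of the 2 dim genes, PRDX2 went from -0.32 to -0.28 with the covariate, but to -0.37 after quantile normalization. SRXN1 went from -0.083 to -0.17 with the covariate and to -0.13 after quantile normalization. Array spread is computed from the same probe sets as the genes, and its part in the differences was not tested beyond this covariate.

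The second comparison was between males and females, 6 of each. No member passed the adjusted threshold in limma, where the background was 0.0168% of the probe sets. At an unadjusted p under 0.05, 2 of the 12 probe sets passed, those of TXN and PRDX6, both lower in males. The background was 9.26% in either direction and 4.66% lower in males. The count of member probe sets was 0 after quantile normalization, and 1 or 2 with 1 pig left out. Array spread was not fitted as a covariate for sex. By main probe set, 6 of the 9 genes had a lower mean in males, with a median difference of -0.24, and so had 6638 of all 12579 genes, with a median of -0.014. TXN had levels of 8.06, 8.57 and 9.33 in males, against 8.81, 9.01 and 9.55 in females (lowest, median, highest). Of the 6 males, 5 lay below the lowest female, and the low male replicate 2 was the exception. The difference was -0.46 (SE 0.169, 95% interval -0.82 to -0.089), with an unadjusted p of 0.0191 and an adjusted p of 0.495 in limma.

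PRDX6 had levels of 7.85, 8.42 and 8.82 in males, against 8.34, 8.83 and 8.92 in females (lowest, median, highest). The difference was -0.38 (SE 0.165, unadjusted p 0.0402 and adjusted p 0.526 in limma), and it was -0.26 without the high male replicate 1, whose enterocyte markers were low. PRDX1, PRDX3 and PRDX4 were lower in males by values that did not pass, at -0.24, -0.29 and -0.36. Several marker lists were lower in males too: plasma cell markers for 5 of 5 tested genes (median -0.38), goblet cell markers for 6 of 6 (-0.23), enteroendocrine markers for 5 of 7 (-0.21) and T cell markers for 6 of 7 (-0.17). Macrophage and dendritic cell markers were lower for 3 of 4 (-0.17) and enterocyte markers for 6 of 11 (-0.11). Endothelial and red blood cell markers had medians of -0.038 and -0.033. Crypt and proliferation, fibroblast and smooth muscle markers were not, with medians of 0.032, 0.025 and 0.00041. The part of these cell types in the values of the genes was not tested. The other 4 genes differed between the sexes by -0.037 to 0.090, with intervals that all held 0.

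The third comparison asked whether the feed efficiency difference itself differed between the sexes, with 3 pigs in each of the 4 groups. No member passed the adjusted threshold in limma and the background was 0%. At an unadjusted p under 0.05, 1 of the 12 member probe sets passed, against a background of 6.69%. That call was lost under 10 of 17 alternatives, among them quantile normalization, median centring and 6 of the 12 fits with 1 pig left out. It was the main probe set of SRXN1, the dim repair enzyme. Its levels were 3.10, 2.93 and 3.29 in high males, against 2.78, 2.82 and 3.14 in low males. In females they were 2.63, 2.76 and 2.86 in high pigs, against 2.97, 3.19 and 3.19 in low pigs. The high females lay below all low females, while the males overlapped. The difference was 0.19 in males and -0.36 in females, and the difference between these was 0.55 (95% interval 0.051 to 1.05, adjusted p 0.743 in limma). The second SRXN1 probe set went the other way, with -0.28 for the same quantity. For TXN the difference was -0.54 in males and -0.20 in females (adjusted p 0.853 for their difference in limma), and for PRDX1 it was -0.30 in males and -0.32 in females (adjusted p 0.992).

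The genes were then compared with each other across the 12 pigs. Of the 36 pairs of main probe sets, 21 correlated positively, with a median r of 0.11 and a range from -0.57 to 0.90. Across all 70 relations computed, p-values are permutation p-values adjusted by Benjamini-Hochberg. TXN and PRDX1, which TXN reduces, had the highest r, 0.896, with a rho of 0.860 (adjusted p 0.00192 and 0.0119). Without the 2 pigs farthest from the median of PRDX1 it was 0.798, and it was 0.755 within the high group and 0.967 within the low group. PRDX4 and TXN had an r of 0.835 and a rho of 0.748 (adjusted p 0.0108 and 0.0464), and 0.567 without the 2 farthest pigs. PRDX1 and PRDX4 had an r of 0.780 and a rho of 0.762 (adjusted p 0.0162 and 0.0385), and 0.591 without the 2 farthest pigs. These 3 pairs passed by both measures, while PRDX3 passed with PRDX4 by r alone (0.737) and with PRDX1 by rho alone (0.804). PRDX2, PRDX6, TXN2, TXNRD1 and SRXN1 were in no pair that passed. How often pairs of other genes on these arrays reach such values was not computed, so the counts are not read as a trait of these genes. Genes outside the list reached an r with PRDX1 above that of TXN, up to 0.958.

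**Figure D3:**
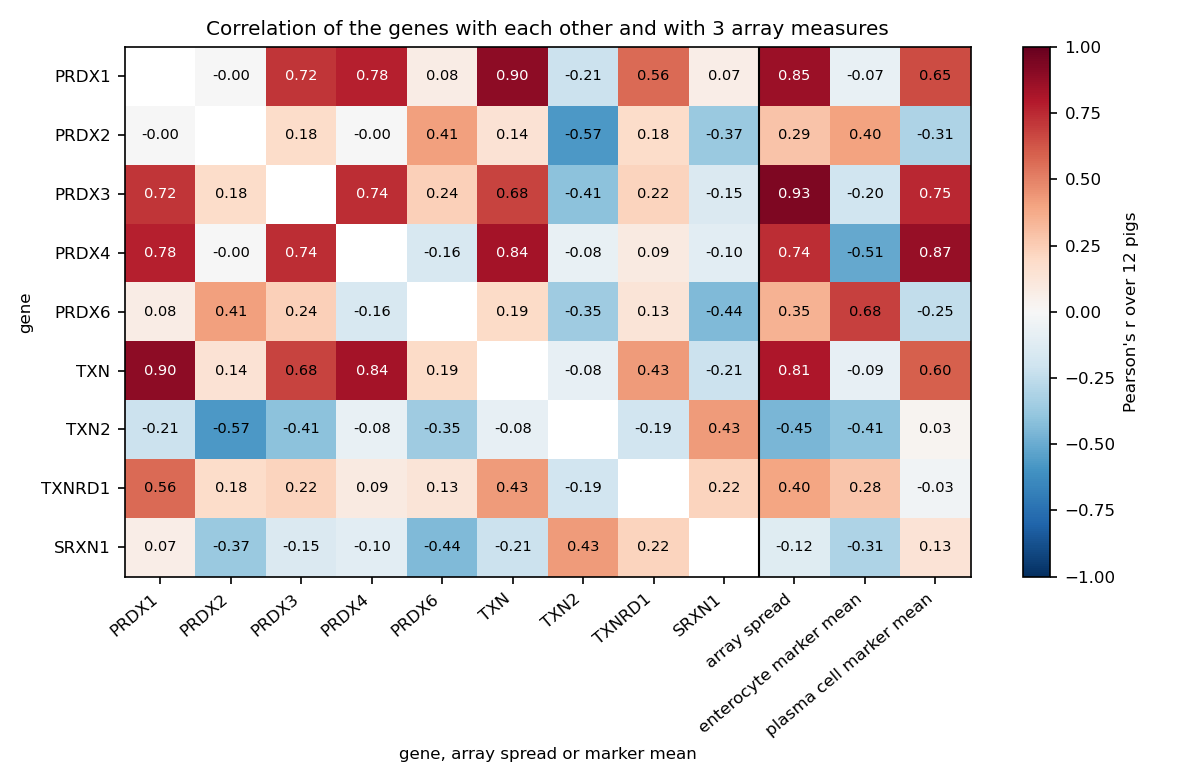
Pearson's r over 12 pigs between the main probe sets of 9 genes, and, right of the vertical line, between each gene and array spread, the mean of 11 enterocyte markers and the mean of 5 plasma cell markers. PRDX1, PRDX3, PRDX4 and TXN form a block of r from 0.68 to 0.90, and the same 4 genes have r from 0.74 to 0.93 with array spread.

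The 4 genes of that block also followed array spread. The r with spread was 0.932 for PRDX3, 0.854 for PRDX1, 0.806 for TXN and 0.735 for PRDX4 (adjusted p 0.0007, 0.007, 0.0139 and 0.0364). By rank, PRDX4 did not pass (rho 0.713, adjusted p 0.0609). Within each feed efficiency group the r was 0.697 or higher for all 4, while in females it was 0.387 for TXN. Without the 2 pigs farthest from the median spread it was 0.863 for PRDX3, 0.760 for PRDX1, 0.798 for TXN and 0.480 for PRDX4. Spread shares its arrays with these genes, and its part in their correlations was not tested. The share of all genes that follow spread as closely was not computed.

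PRDX4 followed the mean of 5 plasma cell markers, the measured ones of a list of 7 (TNFRSF17, XBP1, CD79A, DERL3 and POU2AF1), genes of the antibody-secreting cells of the mucosa. The marker mean ran from 7.20 to 8.72 in the high group and from 7.20 to 8.54 in the low group. The r was 0.869 and the rho 0.888 (adjusted p 0.0007 and 0.0063). It was 0.833 without the 2 farthest pigs, 0.893 within the high group and 0.879 within the low group. PRDX3 had an r of 0.751 (adjusted p 0.0370), while PRDX1 at 0.654 and TXN at 0.596 did not pass. This contrast depended on 1 pig. Without the high male replicate 1 the r was 0.904 for PRDX1, 0.803 for TXN, 0.814 for PRDX3 and 0.871 for PRDX4. These relations were added after the data were seen. The means of the other marker lists were not compared with the genes, so whether PRDX4 follows any of them as closely is not known. PRDX4 ran against the mean of the enterocyte markers by rank, with a rho of -0.790 (adjusted p 0.0304), while its r of -0.509 did not pass. Whether the share of plasma cells bears on the PRDX4 level was not tested.

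**Figure D4:**
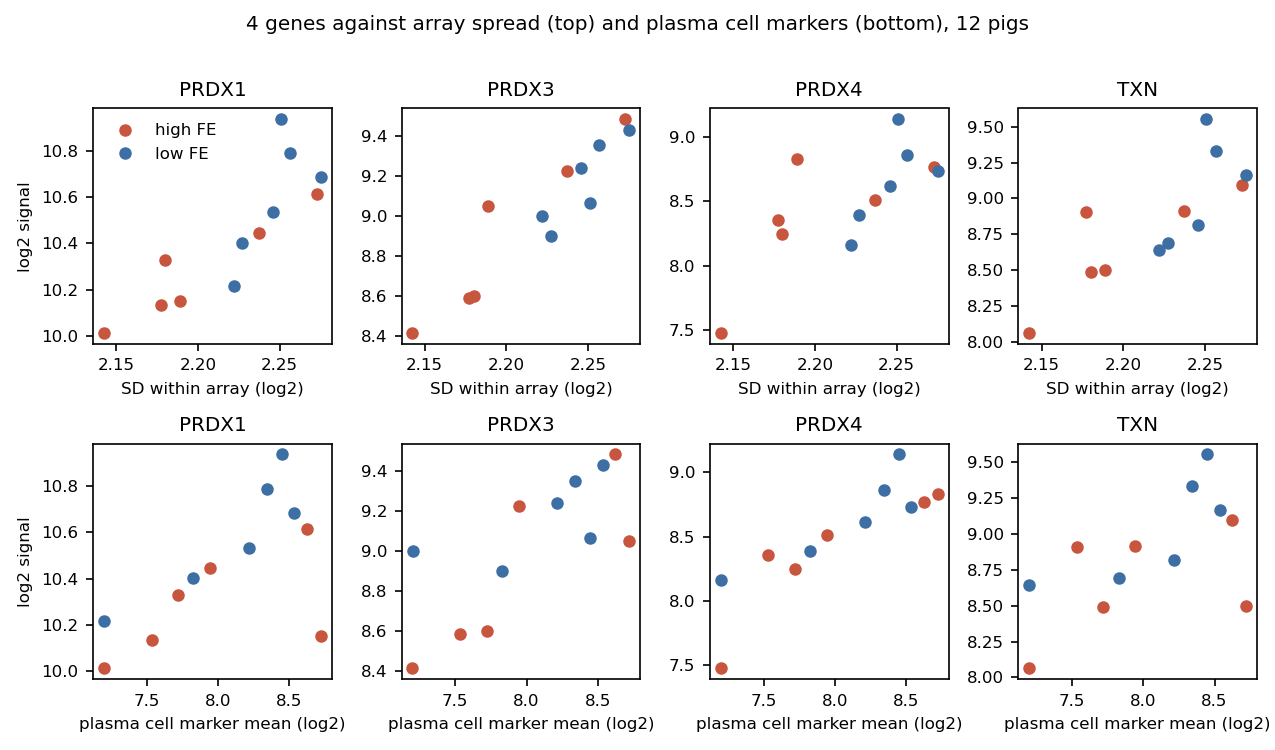
Log2 signal of PRDX1, PRDX3, PRDX4 and TXN in 12 pigs against array spread in log2 units (top row) and against the mean log2 signal of 5 plasma cell markers (bottom row), with high feed efficiency pigs in red and low in blue. PRDX3 follows spread most closely, with an r of 0.932, and PRDX4 follows the plasma cell markers, with an r of 0.869. The 4 genes shown were chosen after their correlations were seen.

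Among all 12579 genes, those most like the scaled mean of the 9 genes across the 12 pigs were VPS29, MAPK14, KCTD2, TAF11 and IER3IP1, with r from 0.917 to 0.932. The genes most like PRDX1 were RRM1, a subunit of the ribonucleotide reductase that thioredoxin reduces, with an r of 0.958, then NDUFV2 (0.950) and CCT4 (0.949). Those most like TXN were ANAPC7 (0.956), ARHGAP19 (0.932) and IER3IP1 (0.931). They were picked as the highest of 12579 values over 12 pigs, so these r are given as a description.

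The wider redox pathway was read from 5 lists of related genes, each with its main probe set. None of their genes passed the adjusted threshold in limma, and all differences below are high minus low. Of 23 other thioredoxin system genes tested (25 listed), 14 were lower in the high group, and 4 of these had an unadjusted p under 0.05. Over all genes, 547 of 12579 (4.35%) were lower at that threshold. MSRA, which repairs oxidized methionine with electrons from thioredoxin, had a median of 6.43 in the high group against 7.29 in the low group, a difference of -0.58 (adjusted p 0.629). MSRB1, a second enzyme of that kind, differed by -0.26. Of the thioredoxin-fold proteins, TXNDC12 differed by -0.79 and TXNDC15 by -0.38. The high and low pigs overlapped for all 4 of these genes. TXNIP, which binds and inhibits thioredoxin, differed by 0.0020 (95% interval -0.36 to 0.37), and TXNRD2, the mitochondrial reductase, by 0.053.

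Of 15 glutathione and glutaredoxin genes tested (17 listed), 12 were lower in the high group and 1 had an unadjusted p under 0.05, against the same 4.35% of all genes. That was GLRX3, a glutaredoxin that handles iron-sulfur clusters, at -0.38 (adjusted p 0.630). CHAC2, which degrades glutathione, was at -0.37, GCLM, a subunit of the enzyme that starts glutathione synthesis, at -0.35, and GSR, glutathione reductase, at -0.21. The NRF2 pathway is the oxidant response that also drives TXN, TXNRD1, PRDX1 and SRXN1 in mouse and human cells. Of 13 of its genes and known targets tested (18 listed), 11 were lower in the high group, 2 with an unadjusted p under 0.05 against 4.35% of all genes, and the median was -0.18. FTH1, the ferritin heavy chain, had levels of 5.65, 6.14 and 6.31 in the high group, against 6.19, 6.42 and 6.63 in the low group (lowest, median, highest), a difference of -0.34 (unadjusted p 0.0112 and adjusted p 0.621). ABCC2, an exporter of conjugates, differed by -0.82, OSGIN1 by -0.29 and FTL, the ferritin light chain, by -0.21.

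Of a list of 9 superoxide dismutases, catalase, sestrins and related genes, 7 were tested, without catalase, and 4 were lower in the high group. SOD1, the cytosolic superoxide dismutase, was at -0.24, SOD2 of mitochondria at -0.15, SESN1 at -0.11 and SESN3 at 0.47. The 7 tested of 10 listed genes of NADPH supply had a median of -0.014, and 5 were lower. PGD of the pentose phosphate pathway was at -0.20, MTHFD1 of folate metabolism at -0.19, the malic enzyme ME1 at 0.17 and the mitochondrial transhydrogenase NNT at 0.077. No gene of these last 2 lists had an unadjusted p under 0.05. Over all genes, 57.2% were lower and the median was -0.033, as given above. Array spread, a value of the whole array, was lower in the high group, and its part in the list differences was not tested.

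**Figure D5:**
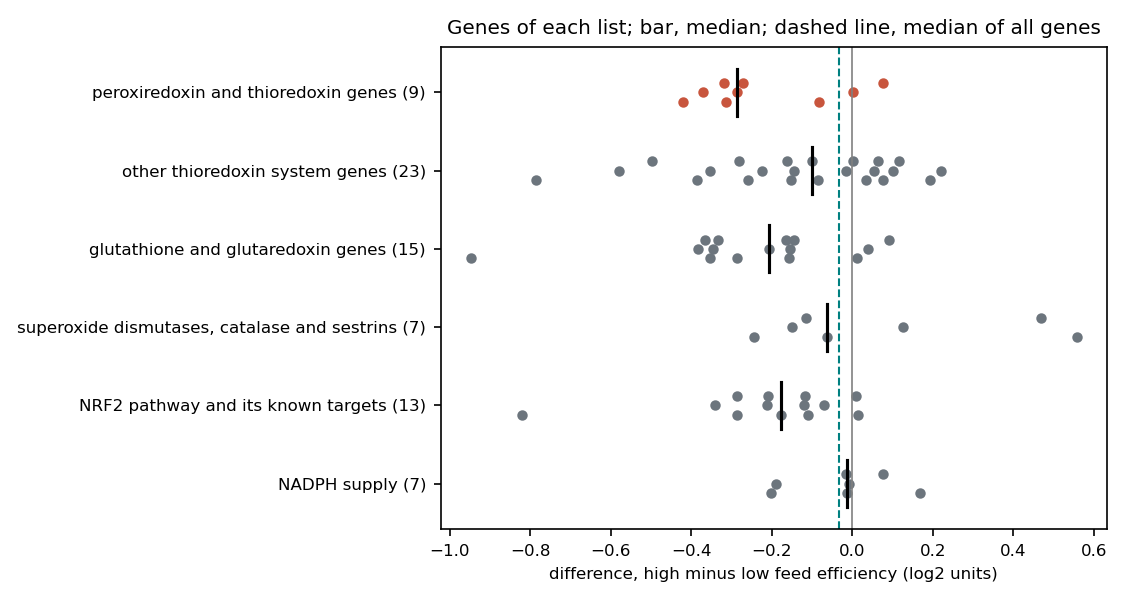
Difference between high and low feed efficiency in log2 units, high minus low, for each gene of 6 lists, 1 point per gene at its main probe set, with the number of genes in brackets. Black bars are list medians, the dashed line is the median of all 12579 genes, -0.033. The medians run from -0.29 for the peroxiredoxin and thioredoxin genes to -0.014 for NADPH supply.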

How the data were processed

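Total RNA of jejunal mucosa was hybridized to 1-colour Affymetrix Snowball arrays, 1 per pig, after extraction with Qiazol and DNase and column purification, per the labels' protocols. The authors' deposited table holds processed signals, taken as log2 from their range because no scale is stated. GCOS 1.1.1, named in the submitters' processing notes, is Affymetrix operating software; how background was corrected and probes were summarized and normalized is not stated in the sources used here. The deposited log2 values were used unchanged. Control probe sets (123) were left out, and probe sets with a mean over 12 arrays above the 25th percentile, 2.29, were tested, which left 35791. Symbols came from the platform annotation, updated where a synonym in RefSeq's table for Sscrofa11.1 was unique. No sequence or position is given.

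Tests used limma 3.58.1 in R 4.3.3 on all 12 arrays: feed efficiency with sex as a term, and a model of the 4 means for the interaction, with Benjamini-Hochberg adjustment over all probe sets tested and a threshold of 0.05. Exact permutation tests relabelled pigs within sex. Correlations have permutation p-values from 100000 resamples (SciPy 1.17.1), adjusted over 70 relations. Alternatives were quantile normalization, median centring, other filters, array weights, dropped terms, array spread as a covariate, other probe sets and each pig left out.

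The members and the gene lists were chosen with earlier results of these data known. Members were all named; in each other list, up to 4 genes of the lowest unadjusted feed efficiency p were named, and the most similar genes by the highest r. TXNIP and TXNRD2 were named outside this rule after their values were seen. Precision is limited by the number of arrays, which have no depth. The feed efficiency fit was tested on simulated data: of probe sets changed by 0.6 log2 units among 35791, 12% were recovered, with 61% at a change of 1 and 88.5% at 1.5. The labels name separate pigs, so p-values measure the spread between pigs.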

Additional observations from a re-analysis of the deposited data

Results flagged for a closer look

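In 6 of 92 groups of 6 pigs examined, 1 pig lay apart from the others by more than Dixon's 95% critical share of the group's range. Chance gives about 1 in 20. The PRDX2 main probe set was at 3.381 in the low male replicate 1, against 2.27 to 2.51 in the other low pigs. The TXNRD1 main probe set was at 8.284 in the low female replicate 4, against 9.27 to 9.76 in the other low pigs. PGD, an NADPH-supplying enzyme, was at 7.123 in the high female replicate 6, against 7.65 to 7.89 in the other high pigs. The enterocyte marker mean was 8.553 in the high male replicate 1, against 10.32 to 10.79 in the other high pigs. The endothelial marker mean was 5.799 in the high female replicate 4, against 6.20 to 6.40 in the other high pigs. The red blood cell marker mean was 5.716 in the low female replicate 4, against 4.45 to 4.78 in the other low pigs.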

How the results depend on the processing

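The count of calls past the adjusted threshold stayed at 0 for feed efficiency under 19 alternatives and at 0 for the interaction under 17, and ran from 4 to 7 for sex under 18; no member passed in any. The count of member probe sets at an unadjusted p under 0.05 ran from 0 to 4 for feed efficiency, with 4 when the low female replicate 4 was left out. The calls of PRDX1 and TXN were both lost under quantile normalization, array weights, no sex term and array spread as a covariate. Both were also lost when high replicate 1, 3, 4 or 6 or low replicate 2, 5 or 6 was left out. Of the 9 genes, 5 to 8 were lower in the high group; the 5 came with the filter at the 50th percentile, which leaves out PRDX2 and SRXN1. Feed efficiency differences changed sign with array spread as a covariate for PRDX3 (0.18), PRDX4 (0.082) and TXN2 (-0.066), for PRDX6 with median centring (-0.022) and with pigs left out (-0.089 to 0.12), and in other probe sets of PRDX2 (0.20), TXN (0.23) and SRXN1 (0.19). Sex differences changed sign for PRDX2 with quantile normalization (-0.017), with median centring (-0.021) and with pigs left out (-0.15 to 0.10), for TXN2 with quantile normalization (0.054) and pigs left out (-0.095 to 0.0051), and for TXNRD1 with pigs left out (-0.12 to 0.26). The cause was not tested. No paired analysis was possible because the replicate numbers follow the order of deposit and do not come from the labels.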
